A study of Mus musculus with 9 samples.

Results

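The tubulin genes of mouse NIH 3T3 fibroblasts were followed across 9 Affymetrix expression arrays, with members taken as every probe set that the platform annotation maps to 1 symbol only, that symbol being Tuba1a, Tuba1b, Tuba1c, Tuba4a, Tubb2a, Tubb2b, Tubb3, Tubb4b, Tubb5 or Tubb6. Of these 10 genes 8 had such a probe set, out of 18193 genes with one on the array; Tuba1b and Tuba1c had none, and no value is given for them. The 8 genes had 18 member probe sets, of which 11 passed the filter on low values (above the 40th percentile of their own array on at least 3 arrays) and 7 did not.

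NIH 3T3 is an established mouse fibroblast line. Cultures were starved of serum, and every group, controls included, was given cycloheximide, which blocks translation, at 3 µg/ml for 2 h. There were 3 arrays of cells given cytochalasin D at 2 µM, 3 of cells given latrunculin B at 5 µM together with cytochalasin D at 2 µM, both drug treatments lasting 90 min, and 3 of control cells with neither drug. Cytochalasin D is a filament-capping fungal toxin that sets the SRF coactivator MRTF free of actin monomers, and latrunculin B sequesters the monomers with MRTF still held on them. The group with both drugs follows its agent label and the series design, which name both drugs, whereas its sample titles name latrunculin B alone. Replicates are numbered 1, 3 and 7 in each group, and the series design calls them independent biological replicates.

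Alpha- and beta-tubulin form the dimers from which microtubules are built, and mammals encode several isotypes of each, which differ mostly at their carboxyl ends. Tubb5 (class I) and Tubb4b (class IVb) are the common beta isotypes of dividing cells, Tubb2a and Tubb2b (class II) and Tubb3 (class III) are abundant in neurons, and Tubb6 (class V) is a minor isotype of many tissues. Cells adjust tubulin mRNA to the pool of free dimers through recognition of the nascent tubulin chain on the ribosome. Tubulins are not actin genes, and the comparison asks whether any isotype moves with the state of actin, with Tubb6 set against the others.

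The fibroblast label was borne out by markers: 12 of the 13 fibroblast markers on the array lay above an intensity of 100 on all 9 arrays, against 0 of 10 neuronal, 0 of 5 epithelial, 0 of 4 endothelial, 0 of 2 adipocyte, 0 of 4 skeletal muscle and 1 of 6 macrophage and leukocyte markers (Cd14). Array medians ran from 7.57 to 7.84. Arrays with replicate number 1 stood apart: for 17.6% of the 27010 probe sets tested, the 3 of them lay on 1 side of the other 6 arrays, whatever the group, against 1.92% for number 3 and 8.47% for number 7. The Tubb6 results are given also without them.

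For the promoters, windows from 250 bases before to 50 bases after the start were read from RefSeq (GRCm38.p6), which held one for 8 of the 10 genes, without Tubb2b and Tubb6. A few of them are shown, chosen as those of the abundant isotypes whose array values stayed nearest to control (Tubb5 and Tubb4b) and of the gene with the most negative change (Tubb2a). Capitals mark matches to CCAAT or to TATAAA, or to TGACGTCA, on either strand.
Tubb5, chr17:35838252-35838551, minus strand: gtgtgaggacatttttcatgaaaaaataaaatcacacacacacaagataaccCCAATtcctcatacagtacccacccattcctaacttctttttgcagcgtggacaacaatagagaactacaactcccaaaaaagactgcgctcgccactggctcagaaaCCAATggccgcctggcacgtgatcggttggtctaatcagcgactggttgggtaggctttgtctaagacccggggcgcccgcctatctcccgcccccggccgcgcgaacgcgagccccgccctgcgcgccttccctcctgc
Tubb4b, chr2:25224653-25224952, minus strand: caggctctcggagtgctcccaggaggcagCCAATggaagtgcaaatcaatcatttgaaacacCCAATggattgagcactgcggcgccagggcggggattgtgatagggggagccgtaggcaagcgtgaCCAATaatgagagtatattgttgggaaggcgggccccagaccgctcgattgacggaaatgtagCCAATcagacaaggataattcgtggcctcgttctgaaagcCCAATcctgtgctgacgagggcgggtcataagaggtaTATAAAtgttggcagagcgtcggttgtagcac
Tubb2a, chr13:34077959-34078258, minus strand: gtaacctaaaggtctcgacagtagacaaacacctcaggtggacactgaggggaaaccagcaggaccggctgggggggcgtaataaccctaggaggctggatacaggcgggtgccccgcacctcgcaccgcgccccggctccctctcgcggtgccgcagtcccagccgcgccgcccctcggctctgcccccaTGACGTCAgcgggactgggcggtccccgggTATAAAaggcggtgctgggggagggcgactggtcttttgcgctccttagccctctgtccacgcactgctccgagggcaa
CCAAT, the letters bound by the factor NF-Y, was in 5 of the 8 windows and in 37.4% of all 32851 windows of that length. TATAAA was in 2 of the 8 (Tubb2a and Tubb4b) and in 13.6% of all windows, and TGACGTCA, the cyclic AMP response element, in 1 of the 8 (Tubb2a) and in 1.79% of all. The CArG box, the element that SRF binds, had no match in the 8 windows, and 1.63% of all windows held one. The first base of the Tubb2a TGACGTCA match lay at -59 and that of its TATAAA match at -29 from the start. The TATAAA match of Tubb4b began at position 19, which is after the start. In Tubb4b the 5 CCAAT matches began at -221, -188, -122, -59 and -19, and in Tubb5 the 2 matches at -198 and -90. No motif overlapped another.

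Of the tubulins measured, Tubb6 was the 1 called higher than control in both drug groups. Its probe set 1416431_at had intensities of 2013, 2098 and 2529 in the cytochalasin D cultures, 1612, 1774 and 2029.6 in the cultures with both drugs, and 836, 757 and 872 in the controls (replicates 1, 3 and 7). Every drug-treated array lay above every control array, and the highest array with both drugs (2029.6) lay just above the lowest array with cytochalasin D alone (2013). On log2(intensity + 16), the scale of all changes here, Tubb6 rose by 1.41 under cytochalasin D (SE 0.12, 95% interval 1.13 to 1.68, a 2.65-fold rise), with means of 2213 ± 277 under cytochalasin D and 822 ± 58.7 in controls (SD, n = 3; limma adjusted p = 0.00278). With both drugs it rose by 1.12 (SE 0.12, interval 0.84 to 1.39, 2.17-fold), to 1805 ± 210 against 822 ± 58.7 in controls (SD, n = 3; limma adjusted p = 0.0393). Adjusted p-values are Benjamini-Hochberg values over all 27010 probe sets, and a probe set is called below 0.05.

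Of all probe sets tested 0.466% had a larger positive change than Tubb6 under cytochalasin D, and 0.17% with both drugs. Of the 11 tubulin probe sets tested 1 was called in cytochalasin D against control, where 1.57% of all probe sets were called, and 1 in both drugs against control, where 0.111% were. In a test of any difference among the 3 groups (limma F), Tubb6 was again the 1 tubulin called (adjusted p = 0.00675), against 1% of all probe sets.

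The rise under cytochalasin D stayed called without any 1 of the 9 arrays, with changes from 1.31 to 1.47 and adjusted p from 0.00616 to 0.0162. Without the arrays of a whole replicate number the change was 1.49, 1.38 and 1.35 (without number 1, 3 and 7), and the call was lost each time (limma adjusted p = 0.0547, 0.225 and 0.0574). The call with both drugs was less firm: it held without cytochalasin D replicate 7 (adjusted p = 0.0464) and was lost without any other single array, treated or control, with adjusted p from 0.0813 to 0.176 and changes from 1.03 to 1.19. Without the arrays of replicate number 1, 3 and 7 the change with both drugs was 1.21, 1.07 and 1.07. The call was lost each time (limma adjusted p = 0.202, 0.750 and 0.220). Fitted with a term for replicate number, the rise with both drugs was called at adjusted p = 0.0146, and probe sets called in all numbered 123 (0.455%) in place of 30.

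The 2 drug groups were then set against each other. Tubb6 was 0.29 higher with cytochalasin D alone than with both drugs (SE 0.12, 95% interval 0.02 to 0.57, 1.22-fold), which did not pass the test over all probe sets (unadjusted p = 0.0412; limma adjusted p = 1.0, and 0.241 with the replicate number as a factor). Within each replicate number the cytochalasin D array was the higher one: 2013 against 1612, 2098 against 1774, and 2529 against 2029.6. Without any 1 array the difference ran from 0.19 (without cytochalasin D replicate 7) to 0.38 (without the replicate 7 given both drugs). Without all arrays of replicate number 1 it was 0.28. None of the 11 tubulin probe sets was called here, where 0.259% of all probe sets were; at an unadjusted p under 0.05 there were 2 of 11, those of Tubb6 and Tubb2a, and 1141 of 27010 in all. All 3 contrasts share arrays, so that their values are not independent of each other.

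A further Tubb6 probe set, 1446353_at, was among the 7 that did not pass the filter. These 7 had intensities between 2.85 and 5.22 on all arrays, under the 40th percentile of the arrays (6.16 to 6.35), so that they carry no usable level, and the Tubb6 result rests on 1 probe set. The other 6 comprise 5 of the 6 probe sets of Tubb4b and 1 of the 3 of Tuba4a.

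**Figure D1:**
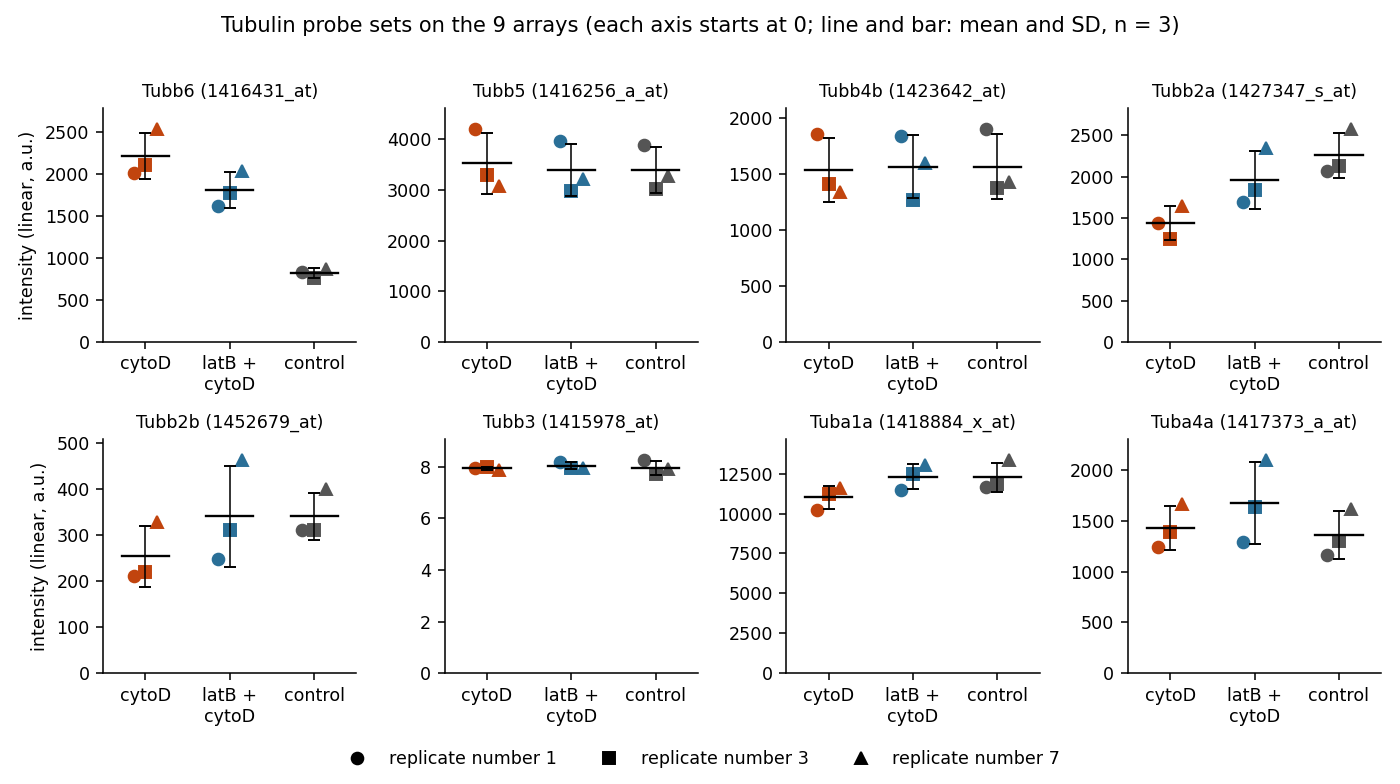
Intensity (linear scale, each axis from 0) of the brightest probe set of each of the 8 tubulin genes on the 9 arrays, grouped as cytochalasin D (cytoD), latrunculin B with cytochalasin D (latB + cytoD) and control; symbols give the replicate number, lines and bars the mean and SD of 3 arrays. Tubb6 lies between 1612 and 2529 on the drug-treated arrays and between 757 and 872 on the controls, whereas the groups overlap for Tubb5 and Tubb4b.

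The common beta isotypes stayed nearer to control. Tubb5, the main beta-tubulin of dividing cells, had intensities of 4199, 3296 and 3073 under cytochalasin D, 3965, 2989 and 3214 with both drugs, and 3895, 3019 and 3272 in controls on probe set 1416256_a_at. The 3 groups overlapped throughout, and in each group replicate 1 was the highest. Its change was 0.05 under cytochalasin D (SE 0.16, 95% interval -0.34 to 0.43) and -0.00 with both drugs (interval -0.39 to 0.38), with limma adjusted p = 1.0 for each. A dimmer Tubb5 probe set, 1455719_at, ranged from 100.1 to 281 and its intervals were too wide to place a change (-1.05 to 0.99 under cytochalasin D).

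Tubb4b, a beta isotype found in most dividing cells and in cilia, had 1863, 1414 and 1339 under cytochalasin D, 1837, 1269.7 and 1599 with both drugs, and 1902, 1372 and 1432 in controls. Groups overlapped here too, and replicate 1 was the highest of each group. The change was -0.03 under cytochalasin D (SE 0.20, 95% interval -0.50 to 0.44; limma adjusted p = 1.0) and -0.00 with both drugs (interval -0.47 to 0.47). The rise of Tubb6 under cytochalasin D, 1.41, lay outside the intervals of Tubb5 and Tubb4b.

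Class II beta-tubulin had negative changes under cytochalasin D, and whether that of Tubb2a was called depended on how the replicate number was treated. Tubb2a, on probe set 1427347_s_at, had 1438, 1239.6 and 1649.5 under cytochalasin D, 1691, 1834 and 2349 with both drugs, and 2068, 2127 and 2573 in controls. All 3 cytochalasin D arrays lay below all control arrays and below all arrays with both drugs, while both drugs and control overlapped. The change under cytochalasin D was -0.64 (SE 0.16, 95% interval -1.02 to -0.26, 0.641-fold), with an unadjusted p of 0.00534 and a limma adjusted p of 0.159. With the replicate number as a block it was called lower (limma adjusted p = 0.017, and 0.0266 as a random block). With both drugs it was -0.21 (interval -0.59 to 0.17), and cytochalasin D against both drugs gave -0.43 (interval -0.81 to -0.05; adjusted p = 1.0). With the replicate number as a factor, the limma adjusted p between the drug groups was 0.126. The s in the probe set's name is the manufacturer's mark for probes shared between transcripts of different genes, so that transcripts of another gene can contribute to it. Which gene that is was not examined. A dim probe set of Tubb2a, 1427838_at, lay between 7.58 and 11.3, near the array medians.

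Tubb2b, its close relative, had 211, 219 and 329 under cytochalasin D, 248, 311 and 461 with both drugs, and 311, 311 and 399 in controls. Groups overlapped, and replicate 7 was the highest in each. Its change under cytochalasin D was -0.42 (SE 0.26, 95% interval -1.03 to 0.19; limma adjusted p = 0.728), and with both drugs -0.04 (interval -0.65 to 0.57). Tubb3, the class III isotype used as a marker of neurons, lay between 7.72 and 8.25 on every array, near the array median, with changes of -0.00 and 0.00 in the drug groups against control, and such values do not show that a transcript was present.

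The alpha-tubulins measured were Tuba1a and Tuba4a. Tuba1a, an isotype abundant in brain and also expressed in fibroblasts, had 10227, 11196 and 11625 under cytochalasin D, 11466, 12466 and 13017 with both drugs, and 11637, 11867 and 13327 in controls. The cytochalasin D arrays lay just below the controls (11625 against 11637 at the nearest), and its change was -0.16 (SE 0.08, 95% interval -0.34 to 0.02; limma adjusted p = 0.587). With the replicate number as a factor, the SE of this change was 0.028 in place of 0.076. It was not called there either (limma adjusted p = 0.0582). With both drugs the change was 0.01 (interval -0.17 to 0.18). Its probe set carries the mark x, for probes that also match other sequences, so that other alpha-tubulin transcripts can contribute.

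Tuba4a, an isotype that ends without the terminal tyrosine of most alpha-tubulins, had 2 usable probe sets. On 1417373_a_at it had 1241, 1395 and 1666 under cytochalasin D, 1289, 1640 and 2098 with both drugs, and 1162, 1306 and 1618 in controls, with overlapping groups and replicate 7 highest in each. On 1417374_at it had 473, 485 and 486 under cytochalasin D, 489, 476 and 574 with both drugs, and 417, 337 and 433 in controls, so that both drug groups lay above control. The changes of this probe set were 0.28 (SE 0.10, 95% interval 0.03 to 0.53; limma adjusted p = 0.413) under cytochalasin D and 0.36 (interval 0.12 to 0.61; adjusted p = 0.558) with both drugs. The brighter probe set gave 0.08 (interval -0.42 to 0.57) and 0.28 (interval -0.22 to 0.78). Within each replicate number its array with both drugs lay above the control array. With the replicate number as a factor, the SE of its change with both drugs was 0.057 in place of 0.209. It was not called there either (limma adjusted p = 0.165).

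Over the 11 tubulin probe sets tested, the median change was -0.03 under cytochalasin D, 0.00 with both drugs and -0.09 for cytochalasin D against both, beside medians of -0.00, 0.00 and -0.01 over all 27010 probe sets. Group values did not overlap for 5 of the 11 in cytochalasin D against control, where 11.5% of all probe sets were parted, for 2 in both drugs against control (8.08% of all), and for 2 in cytochalasin D against both drugs (6.26% of all). The 5 are those of Tubb6 and of Tuba4a 1417374_at, which were higher, and those of Tuba1a and both of Tubb2a, which were lower. These probe sets are not independent of each other, since tubulin sequences are alike and those of Tuba1a and of Tubb2a 1427347_s_at carry a mark for probes that match other sequences. A further 5 probe sets carry a member's symbol together with another, and no gene is named from them; of the 4 that were tested 1 was called, higher under cytochalasin D (0.40, limma adjusted p = 0.0216).

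**Figure D2:**
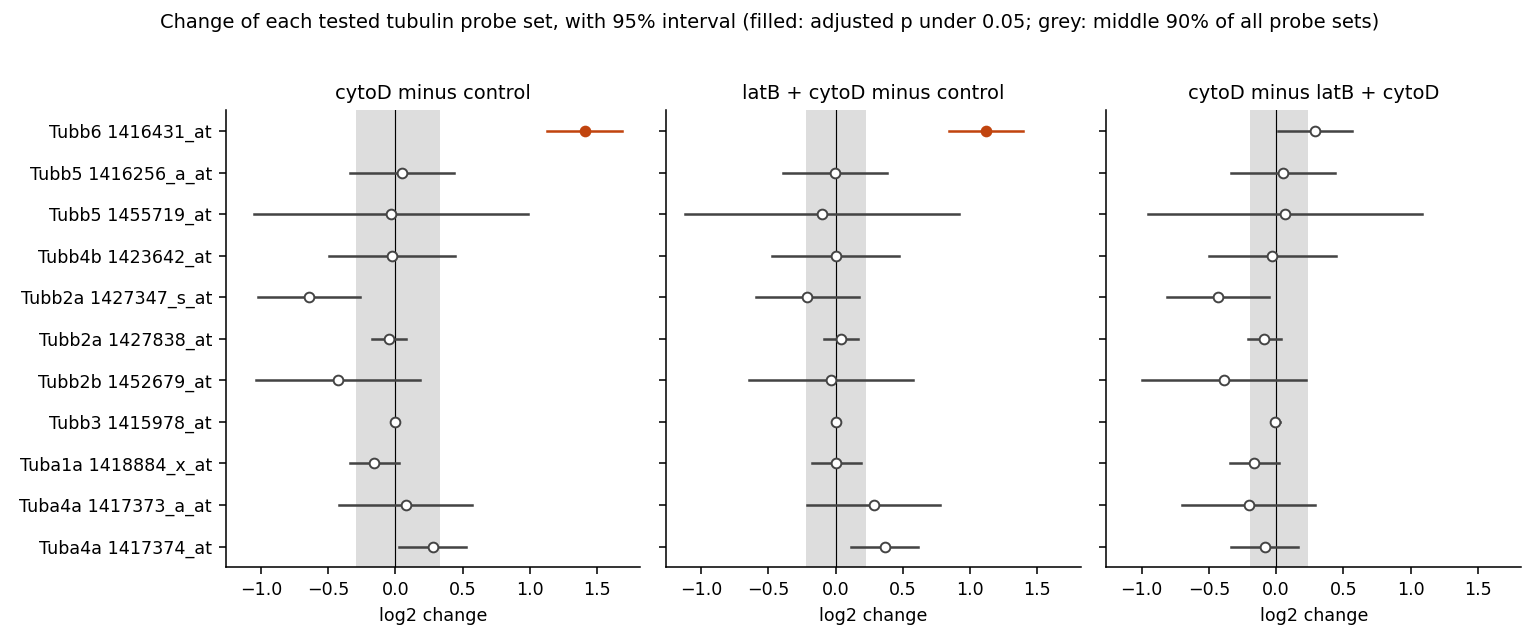
Log2 change of the 11 tested tubulin probe sets in the 3 contrasts, with 95% intervals from limma; filled symbols mark adjusted p under 0.05 and the grey band holds the middle 90% of all probe sets. Tubb6 stands at 1.41 and 1.12 against control, Tubb2a 1427347_s_at at -0.64 under cytochalasin D, and no tubulin is filled between the 2 drug groups.

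Whether Tubb6 moved differently from each other isotype was tested directly, on the difference of log2 values between the Tubb6 probe set and the brightest probe set of the other gene within the same array. An exact permutation test of the F statistic over all 1680 assignments of the 9 arrays to the 3 groups was used, with 7 comparisons adjusted together. The change of Tubb6 under cytochalasin D exceeded that of Tubb5 by 1.36, of Tubb4b by 1.43, of Tubb2a by 2.05, of Tubb2b by 1.83, of Tubb3 by 1.41, of Tuba1a by 1.56 and of Tuba4a by 1.33. With both drugs the excess was 1.12 over Tubb5, 1.12 over Tubb4b, 1.33 over Tubb2a, 1.15 over Tubb2b, 1.11 over Tubb3, 1.11 over Tuba1a and 0.83 over Tuba4a.

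Tubb3 lay near the array median on every array, so that its comparison restates the change of Tubb6 itself and says nothing of that isotype. All 7 comparisons passed the F test, that with Tubb3 included. It tests for any difference among the 3 groups and has no direction. The exact permutation adjusted p was 0.00625 for Tubb2a, Tubb2b, Tuba1a and Tuba4a, 0.01 for Tubb3 and 0.0143 for Tubb5 and Tubb4b. The smallest p these assignments can give was 0.00357 before adjustment. In each of the 7 comparisons every drug-treated array lay above every control array. Taken 2 groups at a time, each drug group against control gave an exact permutation p of 0.1 in all 7 comparisons, which is the smallest that 3 arrays against 3 can give. The 7 differences share the Tubb6 values and are not independent. Without the arrays of replicate number 1 the excess under cytochalasin D ran from 1.42 over Tuba4a to 2.19 over Tubb2a, but the 6 arrays left cannot go below an adjusted exact permutation p of 0.0667, which all 7 reached.

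Between the 2 drug groups, the excess of Tubb6 with cytochalasin D alone over both drugs was 0.72 against Tubb2a, 0.68 against Tubb2b, 0.50 against Tuba4a and 0.45 against Tuba1a, and for these 4 the arrays did not overlap. Against Tubb3, Tubb4b and Tubb5 it was 0.30, 0.32 and 0.24, and the arrays overlapped. The exact permutation p was 0.1 for the 4 and 0.2, 0.4 and 0.4 for Tubb3, Tubb4b and Tubb5 (3 arrays against 3). For Tubb2a and Tubb2b the negative change of the other isotype enters this excess along with that of Tubb6.

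**Figure D3:**
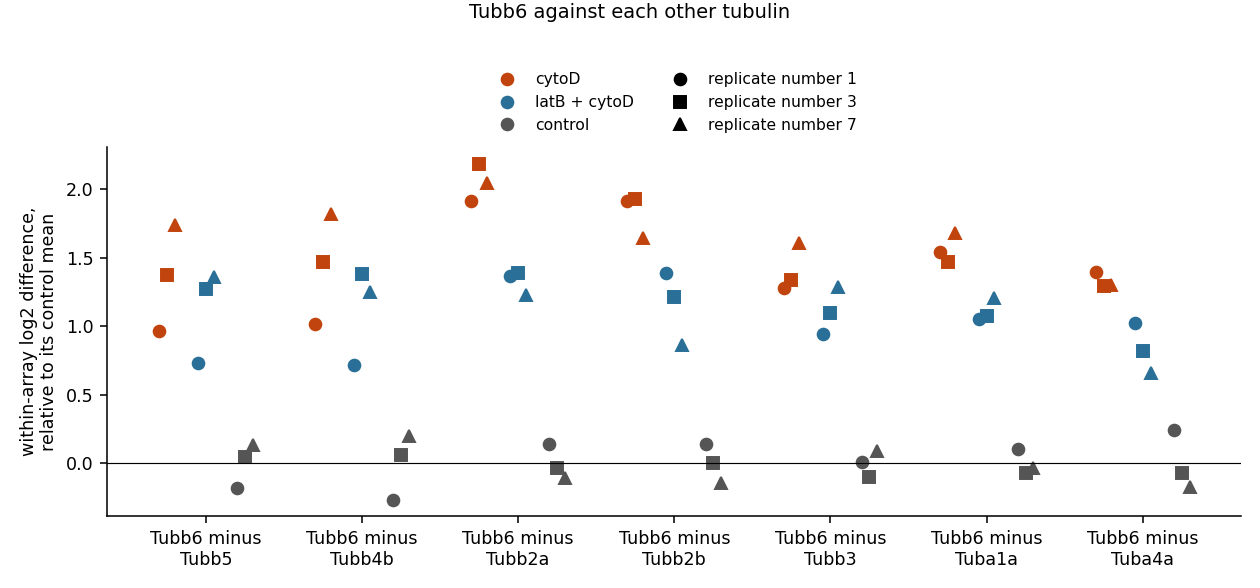
Within-array log2 difference between Tubb6 and each of 7 other tubulins, set to 0 at the mean of the controls; colours give the group, symbols the replicate number. In all 7 comparisons the drug-treated arrays lie above the controls, by 1.33 to 2.05 on average under cytochalasin D and by 0.83 to 1.33 with both drugs.

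Within the groups, the isotypes did not vary alike from culture to culture. Arrays of replicate number 1 exceeded the other 6 by 0.41 (log2) for Tubb4b, by 0.35 for Tubb5 1416256_a_at and by 0.90 for Tubb5 1455719_at, and did not overlap with them. They fell below the others by a difference of -0.38 for Tuba4a 1417373_a_at, again without overlap, and by -0.36 for Tubb2b and -0.14 for Tuba1a, with overlap. Arrays of replicate number 7 were the highest for Tubb2b, 0.54 above the rest and parted from them. For Tubb6 the difference was -0.13 for number 1 and 0.23 for number 7, small beside its change with the drugs. For Tubb5 and Tubb4b the spread between replicate numbers was larger than any difference between groups.

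**Figure D4:**
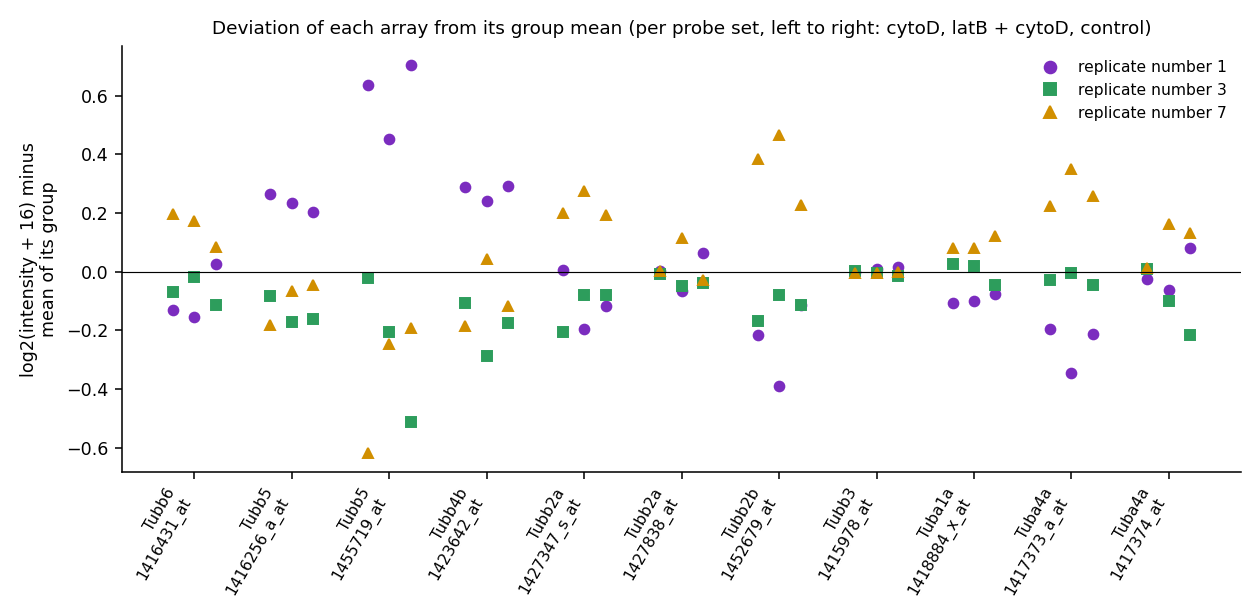
Deviation of each array from the mean of its group, in log2 units, for the 11 tested tubulin probe sets; within a probe set the 3 columns are cytochalasin D, both drugs and control, and colours give the replicate number. Number 1 lies highest for Tubb5 and Tubb4b in all groups, and number 7 highest for Tubb2b.

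The 5 genes whose pattern over the 9 arrays was most like that of Tubb6 were Zfp36, which encodes a protein that destabilizes mRNA (Pearson r = 0.991), Ccn1, a secreted matricellular protein (0.991), Slc2a1, the glucose transporter GLUT1 (0.989), Rusc2 (0.986) and Srf, which encodes serum response factor (0.985). They were taken from 2352 probe sets of other named genes with an SD of at least 0.3, and r is a description that mostly reflects the step between drug-treated and control arrays. Zfp36 averaged 1993 under cytochalasin D, 1327 with both drugs and 320 in controls, a change of 2.59 and 2.01 in the drug groups against control. Srf averaged 1475 under cytochalasin D, 827 with both drugs and 187 in controls, a change of 2.87 and 2.05. Slc2a1 averaged 5130.2 under cytochalasin D, 4007 with both drugs and 2357 in controls, and its change of 1.11 under cytochalasin D was called (limma adjusted p = 0.00361) whereas that of 0.76 with both drugs was not (adjusted p = 0.0759). Rusc2 likewise had 0.90 (adjusted p = 0.00658) and 0.69 (adjusted p = 0.0777).

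**Figure D5:**
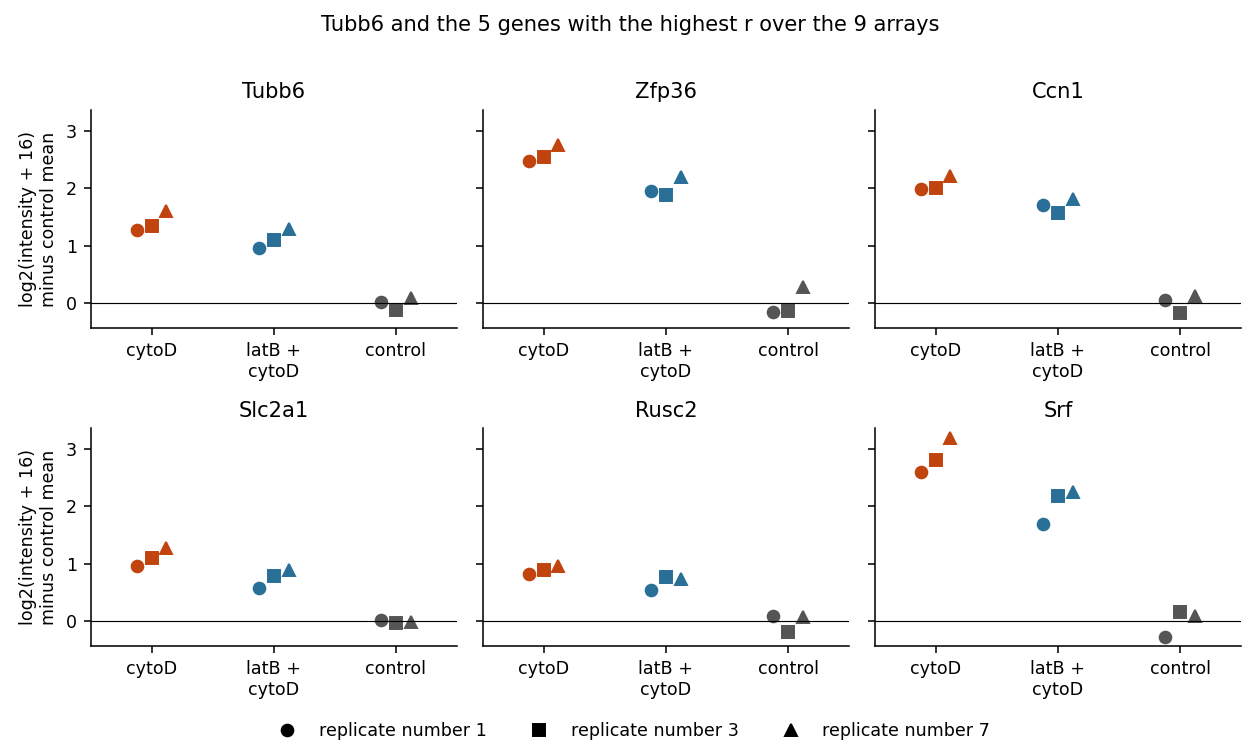
Log2(intensity + 16) of Tubb6 and the 5 genes with the highest Pearson r to it, minus each gene's control mean, on the 9 arrays; symbols give the replicate number. Cytochalasin D arrays average 1.41 above control for Tubb6 and 2.87 for Srf, and arrays with both drugs 1.12 and 2.05.

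Genes that make, fold, modify or bind tubulin were examined from 4 lists, each gene by its brightest tested probe set. In limma without a term for the replicate number, none of them was called in any of the 3 contrasts. These were 0 of 5 other tubulins, 0 of 23 folding and autoregulation genes, 0 of 18 modifying and severing genes and 0 of 23 genes of microtubule binding, plus ends and destabilisers. Of 12651 genes 1.93% were called for cytochalasin D against control, 0.142% for both drugs against control and 0.332% between the drug groups. At an unadjusted p under 0.05 there were 3 modifying or severing genes and 1 binding gene in cytochalasin D against control (11.7% of all genes), 2 and 1 in both drugs against control (6.02% of all) and 1 and 1 between the drug groups (4.85% of all), and none of the other 2 lists. Their median changes under cytochalasin D were -0.02, -0.03, -0.08 and 0.03, beside -0.00 over all genes, and with both drugs -0.01, -0.01, -0.02 and 0.01, beside 0.00. Some of the genes counted had values too low to show a change. Tuba8 (6.42 to 6.69) and Tubg2 (6.36 to 6.61) lay below the array medians of 7.57 to 7.84, and Map2 (7.36 to 8.02) lay near them.

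The other tubulins, among them Tubg1, the gamma-tubulin that nucleates microtubules, ran from -0.27 to 0.00 under cytochalasin D. Among folding genes the lowest adjusted p of the F test belonged to Tbcc, a cofactor that releases folded tubulin dimers (-0.22 under cytochalasin D and -0.28 with both drugs), and Cct4, a subunit of the chaperonin that folds tubulin and actin (-0.07 and -0.01). Of the modifying and severing genes these were Katna1, the catalytic subunit of the severing enzyme katanin (0.17 and 0.14), and Fign, another severing enzyme (-0.84 and -0.70, at intensities of 10.5 ± 2.51 under cytochalasin D, 13.0 ± 0.25 with both drugs and 33.5 ± 17.3 in controls; SD, n = 3).

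Of the binding proteins Mapre1, the plus-end protein EB1, averaged 3714 ± 324 under cytochalasin D, 3269 ± 28.4 with both drugs and 2889 ± 274 in controls (SD, n = 3). Its change was 0.36 (SE 0.08; limma adjusted p = 0.118) under cytochalasin D and 0.18 (adjusted p = 1.0) with both drugs. All cytochalasin D arrays of Mapre1 lay above all its controls (3415 against 3204 at the nearest). With the replicate number as a factor, Mapre1 was called higher under cytochalasin D (limma adjusted p = 0.0395), where 3.87% of all probe sets were called. Map1b, a microtubule-stabilizing protein of growing neurites, had 0.17 and -0.09. Arhgef2, a RhoA activator held on microtubules, had the highest change of its list, 0.55 (SE 0.57; adjusted p = 0.916), at 1074, 703 and 408 under cytochalasin D, 928, 426 and 347 with both drugs, and 886, 361 and 296 in controls (replicates 1, 3 and 7). Replicate 1 was its highest array in every group.

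As a scale for the tubulin values, 8 of 9 MRTF-SRF reference genes were called higher under cytochalasin D (median change 2.08), where 1.93% of all genes were called. With both drugs 2 of 9 were called higher (median 1.0), where 0.142% of all genes were called. Actg1, cytoplasmic gamma-actin, changed by 0.47 (limma adjusted p = 0.00174) and 0.41 (adjusted p = 0.0213), and Acta2, smooth muscle alpha-actin, by 2.08 (adjusted p = 0.00337) and 1.02 (adjusted p = 0.167). Between the drug groups 2 of 9 were called, Acta1 and Cnn1, both higher with cytochalasin D alone, where 0.332% of all genes were called. Cytochalasin D against both drugs gave 1.06 for Acta2, 4.0 for Acta1, 0.07 for Actg1 and 0.29 for Tubb6, of which that of Acta1, skeletal muscle alpha-actin, was called (adjusted p = 0.0113). Whether any of these differs from Tubb6 in this contrast was not tested.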

How the data were processed

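RNA of 9 cultures was measured on Affymetrix arrays, 1 array per culture. What the authors deposited is, for each array, a linear intensity of every probe set after their own normalization; per the submitters' processing notes MAS5 and GCRMA were used, without versions and without saying which made these values. The number of arrays limits the precision. Gene names came from the platform annotation, updated through gene identifiers (RefSeq, GRCm38.p6). After leaving out 64 control probe sets, 27010 of 45037 were tested.

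Log2(intensity + 16) was the response in limma 3.58.1 under R 4.3.3 (lmFit, then eBayes), with 1 coefficient per group, all 9 arrays, two-sided, Benjamini-Hochberg over all probe sets. The fit and the permutation test were tested on simulated data. Same-numbered arrays deviated together from their group means. The correlations were 0.413 to 0.834 between both drugs and control and 0.411 to 0.756 between the drug groups. Between cytochalasin D and control the 3 pairs had 0.710, 0.0763 and 0.653, the low value being that of replicate number 3. The main fit nevertheless had no term for the number in any of the 3 contrasts. Its SEs, intervals and adjusted p-values therefore ignore a pairing by number. Values with the number as a block or factor are marked as such. Of 36 pairs of arrays 0 were identical. The brightest probe set stood for a gene. Alternatives changed the pseudocount, filter, normalization, arrays entering the fit, replicate block and probe sets. The members, lists and alternatives were chosen with earlier results of these data known. Genes named from lists are those called or, with none called, the 2 with the smallest adjusted p of the F test; for the other tubulins all were tied, and Tubg1 and Arhgef2 were chosen after their values were seen.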

Additional observations from a re-analysis of the deposited data

How the results depend on the processing

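Tubb6 kept its positive sign under all 22 alternatives in each contrast, its change running from 1.31 to 1.49 under cytochalasin D (called in 19) and from 1.03 to 1.21 with both drugs (called in 7); it was called in 0 of 22 between the drug groups. The call with both drugs was lost with a pseudocount of 64 (limma adjusted p = 0.0543), no filter (0.0856), quantile normalization (0.0573) and only the 6 arrays compared (0.173), where tubulin probe sets called fell to 0 and all probe sets called to 14, 8, 15 and 1; a 60th percentile filter gave 74 and median centring 62. Tubb2a 1427347_s_at, not called otherwise, was called lower under cytochalasin D with the replicate block (adjusted p = 0.017) and with a random replicate block (0.0266), the tubulin count becoming 2 in each (3.87% of all called with the replicate block); for any difference among the groups it became 2 with the replicate block (2.13% of all). Mapre1 was called higher with the replicate block (0.0395). The block changed no other call of a tubulin. Between cytochalasin D and control the 3 same-numbered pairs correlated at 0.710, 0.0763 and 0.653 (replicates 1, 3 and 7). All 9 arrays correlated best with an array of their own number. In replicate number 3 the array with both drugs correlated at 0.411 with that of cytochalasin D and at 0.413 with that of control. The call of Tubb2a depends on whether the number enters the fit.

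Probe sets called under cytochalasin D numbered 423, and 1044 with the replicate block, 910 with the random replicate block and 159 with the 6 arrays compared. With both drugs 30 became 123 with the replicate block and 139 with the random replicate block. Between the drug groups 70 became 16 without a filter, 9 with 6 arrays and 147 with the random replicate block. For any difference 270 became 171 without a filter, 576 with the replicate block and 602 with the random replicate block. Leaving out 1 array or 1 replicate number gave 0 to 487 probe sets under cytochalasin D, 0 to 42 with both drugs, 0 to 59 between the drug groups and 0 to 238 for any difference, with 0 to 1 tubulin called in the first, second and last. Without replicate number 3 all 4 counts were 0 in limma. At an unadjusted p under 0.05 there were then 1557, 1029 and 725 in the 3 contrasts. Leaving out number 1 or 7 likewise left 6 arrays to estimate the spread. Probe sets called under cytochalasin D were then 305 (without number 1) and 30 (without number 7), and with both drugs 0 and 2.

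Of the 7 comparisons of Tubb6 with another isotype, 7 passed without any 1 array, with either pseudocount and with the replicate block, and 0 without replicate number 1, where none could. With the second probe set of the other gene 3 of 4 passed (Tubb5 did not, adjusted exact permutation p = 0.0786), but that of Tubb4b is below the filter and that of Tubb2a near the array median, so that passing against them restates the change of Tubb6. With the Tubb6 probe set below the filter 0 passed, and the excess turned to -0.076 for Tuba4a and -0.048 for Tubb5; that probe set has no usable level. Signal near the array median limits what Tubb3 and the dim probe sets can show.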
